A study of Homo sapiens with 60 samples.

Results

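Glutathione peroxidases, peroxiredoxins, superoxide dismutases and catalase are the enzymes that remove superoxide, hydrogen peroxide and lipid peroxides from cells, and 10 of them are described here: GPX1, GPX3, GPX4, GPX8, PRDX1, PRDX2, PRDX4, SOD1, SOD2 and CAT. They were taken by name from a table of 37334 genes, and all 10 were among the 15263 genes with at least 1 CPM (counts per 1000000 assigned reads) in at least 3 libraries. GPX8 met that minimum in only 6 libraries, all of day 9 at 0 and 0.16 µM, so it entered the tests through the groups in which it was high, and counts below that include it are a description for that member. The other 9 exceeded 1 CPM in all 60 libraries.

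RNA was sequenced from the wild-type neuroblastoma line SH-SY5Y, of human origin and able to take on neuron-like features, at passage 39. Lead (Pb) was added at 0, 0.16, 1.26 or 10 µM from day 5 of differentiation and renewed with the medium until collection on day 6, 9, 12, 15 or 18, so the shortest exposure ended 1 day after it began. Each of the 20 groups held 3 dishes of 15 cm, 1 library a dish, and the dishes at 0 µM went through the same differentiation without Pb. All dishes are of 1 line at 1 passage, so a p-value here reflects only how much such dishes varied. The libraries of days 6 to 15 carry the name of 1 pool and those of day 18 the name of another, so day 18 and its pool cannot be told apart.

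Between 16594259 and 50539599 reads per library had been assigned to a gene, and 3 reads in a library corresponded to between 0.0594 and 0.181 CPM. The noradrenergic markers GATA3 and DBH and the neuronal marker STMN2 had reads in every library, whereas all 6 blood markers were below 1 CPM in every library. Of 6 epithelial markers KRT1 had no read in any library, while KRT5, KRT14, KRT6A and KRT10 had reads in all, with highest values of 44.0, 25.2, 29.9 and 39.9 CPM. Their medians were 0.61, 0.29, 0.38 and 25.7 CPM. In 2 libraries, replicate 1 at 0 µM on day 18 and replicate 3 at 10 µM on day 6, values fell with transcript length (log2 slopes per 10-fold length of -0.51 and -0.48, against -0.19 in the next lowest), and they are called length-skewed below. Leaving both out ended 6 of the 50 calls made for the members, and the members' called differences on those days are given with and without them. In bulk RNA, fewer cells of a type and less RNA per cell cannot be told apart.

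Superoxide dismutases turn superoxide into hydrogen peroxide: SOD1 is the copper-zinc enzyme of the cytosol and SOD2 the manganese enzyme of mitochondria. Hydrogen peroxide is then reduced by catalase in peroxisomes, by peroxiredoxins with electrons from thioredoxin, and by glutathione peroxidases with glutathione. GPX1, GPX3 and GPX4 are selenoproteins, in which a UGA codon is read as selenocysteine at the active site, while GPX8 has cysteine there. GPX1 is cytosolic and mitochondrial, GPX3 is secreted, GPX4 reduces lipid peroxides in membranes, and GPX8 sits in the membrane of the endoplasmic reticulum. PRDX1 and PRDX2 are cytosolic peroxiredoxins, and PRDX4 works in the endoplasmic reticulum.

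The coding sequence around the active-site codon is shown because it separates the 3 selenoproteins from GPX8 and shows how alike the peroxiredoxins are, which matters for assigning reads. Each window holds 45 bases of the GENCODE 29 transcript, 5′ to 3′, with the active-site codon in capitals. For the glutathione peroxidases this is TGA, read as selenocysteine, in GPX1, GPX3 and GPX4, and TGC for cysteine in GPX8.
GPX1: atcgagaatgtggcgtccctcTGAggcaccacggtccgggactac
GPX3: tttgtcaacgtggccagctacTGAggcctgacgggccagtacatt
GPX4: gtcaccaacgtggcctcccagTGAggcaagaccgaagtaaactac
GPX8: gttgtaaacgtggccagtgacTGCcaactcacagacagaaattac
In GRCh38 the TGA of GPX1 lies at chr3:49358132-49358134 on the minus strand, its only annotated selenocysteine position. For GPX3 and GPX4 the annotation lists 6 and 4 such positions over all transcripts. These were not matched to the transcripts shown, so no position is given for them. The windows of the 4 glutathione peroxidases shared between 22 and 28 of 45 bases in pairs.
For the peroxiredoxins the codon in capitals is that of the cysteine that is oxidised by the peroxide.
PRDX1: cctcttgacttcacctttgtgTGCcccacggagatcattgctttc
PRDX2: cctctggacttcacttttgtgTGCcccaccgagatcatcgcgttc
PRDX4: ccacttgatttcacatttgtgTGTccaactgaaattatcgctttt
PRDX1 and PRDX2 shared 40 of the 45 bases and PRDX1 and PRDX4 shared 35. Over the whole coding sequences, however, the longest run of identical bases was 14 between PRDX1 and PRDX2, 17 between PRDX1 and PRDX4 and 27 between GPX1 and GPX3. Exons of SOD2 overlap those of ACAT2 and WTAP on the opposite strand over 6.27% and 2.4% of its exonic bases, and those of PRDX1 overlap MMACHC over 24.9%. The strand setting of the read counting was not given in the sources used here, so reads in those stretches cannot be told apart by strand.

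Compared per kilobase of transcript, PRDX2 and GPX4 were the highest of the 10 without Pb. On day 6 the mean levels were 441 ± 24.6 CPM per kb for PRDX2 and 399 ± 19.4 for GPX4 (SD, n = 3), followed by SOD1 at 211 ± 20.3, PRDX1 at 115 ± 3.97 and GPX1 at 84 ± 6.71. PRDX4 followed at 46.9 ± 4.10, GPX3 at 23.9 ± 1.26 and CAT at 17.4 ± 0.66, and GPX8 came last at 0.39 ± 0.23. SOD2 is left out of this order because its longest reference transcript, of 14266 bases, is mostly untranslated. PRDX2 and GPX4 differed by less than the sum of their SDs on each of the 5 days and changed places on day 9, at 428 ± 8.3 and 442 ± 18.5. By day 12 PRDX4, at 99.9 ± 5.03, was level with GPX1 at 101 ± 3.92 within their SDs.

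**Figure D1:**
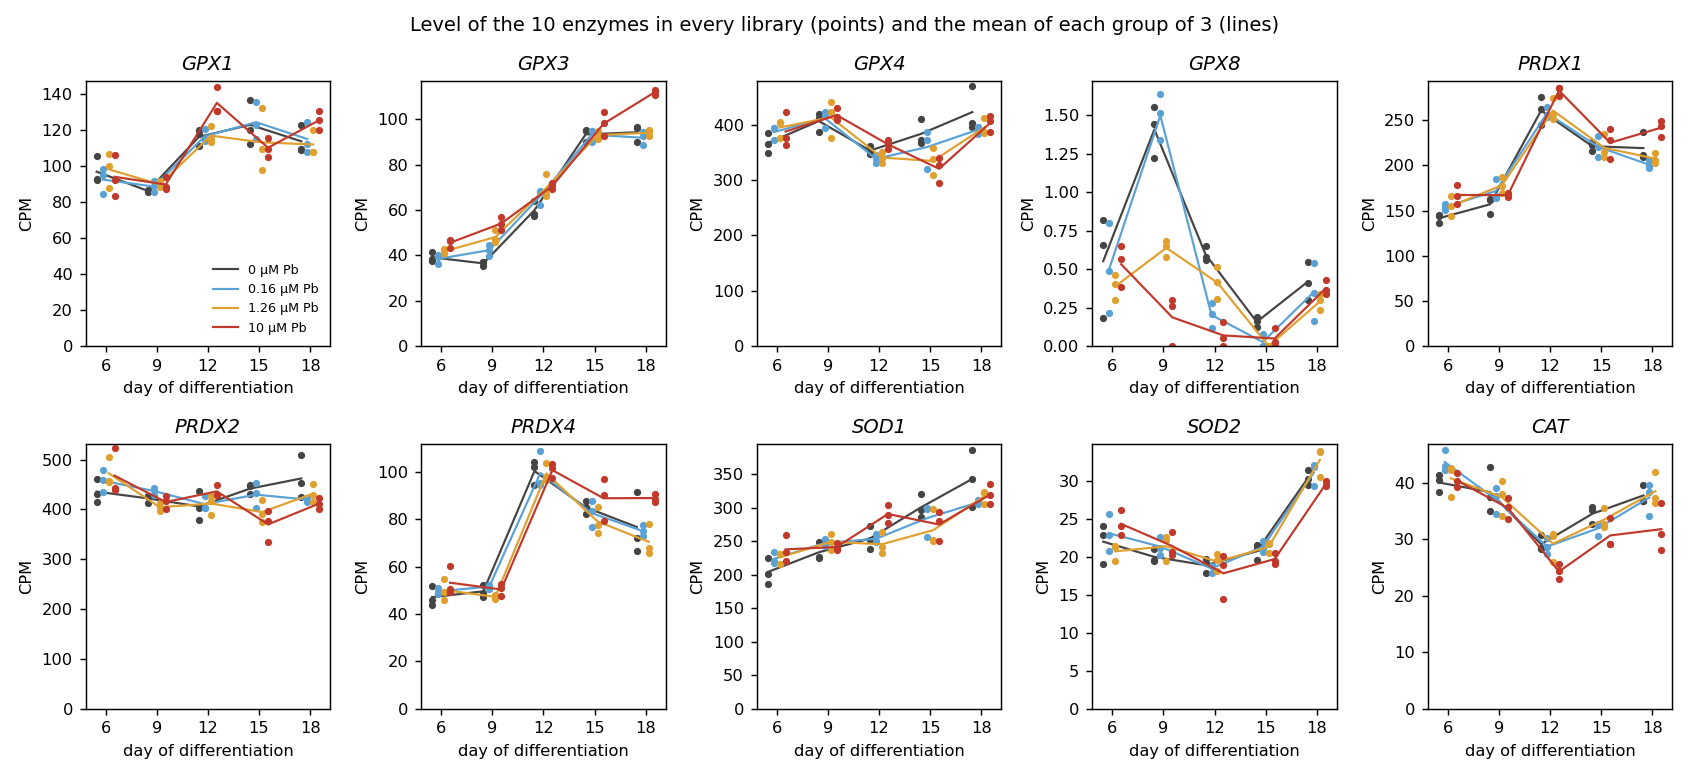
CPM (vertical axes, from 0) of each enzyme by day of differentiation, with 1 point for each of the 60 libraries and lines through the means of the 3 libraries at 0, 0.16, 1.26 and 10 µM Pb. GPX3 climbs from 39.1 to 94.3 CPM without Pb, PRDX1 and PRDX4 jump between days 9 and 12, and GPX8 stays under 2 CPM throughout, with its highest values on day 9 at 0 and 0.16 µM.

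The question of the time course without Pb is how these enzymes change as the cells differentiate. Against day 6, GPX3, PRDX1, PRDX4, SOD1 and GPX1 were higher on days 12, 15 and 18, CAT was lower on days 12 and 15, and PRDX2 passed the threshold on no day. For PRDX1 and PRDX4 the step lay between days 9 and 12. All tests are limma's moderated test on log2(CPM + 1), with p adjusted over the 15263 genes and a threshold of 0.05, and each error beside a log2 difference is its standard error.

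On day 9, 1 of the 10 was higher (GPX8) and 0 were lower, where 2.63% of all genes tested were higher and 2.51% lower. GPX8 met the minimum through libraries of that day, so this count is a description. On day 12, 5 were higher and 2 lower (background 21.6% and 34.6%). On day 15, 5 were higher and 2 lower (26.2% and 32.2%), and on day 18, 7 were higher and 0 lower (32.1% and 34.7%). The median log2 difference of the 10 was 0.16 on day 12, 0.20 on day 15 and 0.34 on day 18, beside -0.11, -0.05 and -0.03 over all genes. Rescaling the libraries by median ratios, which moves the day 12 median of all genes by about 0.1, reversed none of the members' called directions. Of the members' 50 calls over all comparisons it kept 45 and lost 5. Without the 2 length-skewed libraries 5 members were called on day 18, GPX3, PRDX1, PRDX4, SOD1 and SOD2, with differences of 1.23, 0.57, 0.55, 0.66 and 0.47.

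GPX3, the secreted glutathione peroxidase, had the largest difference of the 10 on day 18. Its CPM without Pb were 41.4, 38.5 and 37.5 on day 6, then 37.0, 35.2 and 37.1 on day 9. They were 64.0, 58.3 and 57.5 on day 12, 94.9, 90 and 95.1 on day 15, and 96, 96.8 and 90.2 on day 18. Days 6 and 9 lay below all later days, and days 15 and 18 overlapped. The log2 difference from day 6 was 0.60 ± 0.056 on day 12 (adjusted p = 7.72e-13), 1.23 ± 0.056 on day 15 (7.66e-24) and 1.25 ± 0.056 on day 18 (3.37e-24). GPX1 was at 96.7 ± 7.72 CPM on day 6 and at 116 ± 4.52, 123 ± 12.4 and 114 ± 7.99 on days 12, 15 and 18, with log2 differences of 0.26, 0.34 and 0.23 ± 0.083. Its transcript is 64.2% GC, and with values corrected for GC content and transcript length the 3 differences were 0.12, 0.07 and -0.01, none past the threshold. On day 18 the adjusted p of 0.014 for GPX1 also became 0.0665, 0.0595 and 0.0994 without replicate 1 or 2 of day 6 or replicate 1 of day 18, and 0.0791 without both length-skewed libraries.

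GPX4, the lipid peroxide reductase, changed less in proportion. It lay between 348 and 419 CPM on days 6 to 15 without Pb, and its 3 values on day 18 were 470, 403 and 396. The highest of them belongs to the day 18 library with low values of long transcripts. The log2 difference on day 18 was 0.20 ± 0.064 (adjusted p = 0.00534), 0.12 without that library (adjusted p = 0.109), and -0.10 with the correction for GC content and length. GPX8, the endoplasmic reticulum member, gave few reads: without Pb 4, 27 and 18 on day 6, 43, 48 and 24 on day 9, 15, 21 and 14 on day 12, 7, 5 and 4 on day 15, and 15, 16 and 5 on day 18. In CPM all libraries of day 9, at 1.22, 1.56 and 1.44, exceeded all those of the other days without Pb, whose highest was 0.82. On the log2(CPM + 1) scale, which compresses such low values, the day 9 difference was 0.65 ± 0.12 (adjusted p = 0.000291), and edgeR's quasi-likelihood test on the recovered reads gave an adjusted p of 0.11. With only the 2 groups in the fit it was 0.07. These day 9 libraries are among those through which GPX8 met the minimum, so the day 9 difference is a description. The day 15 difference was -0.40 ± 0.12 (adjusted p = 0.00484), and -0.27 without replicate 2 of day 6 (adjusted p = 0.0766).

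Among the peroxiredoxins, PRDX1 and PRDX4 rose together and PRDX2 did not pass the threshold on any day. PRDX4 without Pb was at 43.6, 46.1 and 51.7 CPM on day 6 and 49.1, 52.4 and 47.3 on day 9. It reached 104, 102 and 94.7 on day 12, then 82.1, 85.4 and 87.7 on day 15 and 91.4, 72.3 and 66.6 on day 18. Every library of days 12 to 18 exceeded every library of days 6 and 9, and day 12 was the highest. The log2 difference from day 6 was 1.08 ± 0.083 on day 12, 0.84 on day 15 and 0.68 on day 18 (adjusted p = 1.33e-15, 3.59e-12 and 8.11e-10). PRDX1 had a similar course, with 136, 144 and 145 CPM on day 6, 146, 163 and 162 on day 9, and 275, 262 and 245 on day 12. Its later values were 222, 216 and 226 on day 15 and 237, 211 and 210 on day 18, and its log2 differences on days 12, 15 and 18 were 0.88, 0.64 and 0.63 ± 0.059. Over the 20 group means PRDX1 and PRDX4 had a Pearson r of 0.969, a description over groups that share their days. PRDX2 lay between 380 and 509 CPM in the libraries without Pb, with log2 differences from -0.10 to 0.08.

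SOD1, the cytosolic dismutase, had group means that stood in the order of the days. Without Pb the libraries gave 187, 200 and 225 CPM on day 6, 225, 250 and 226 on day 9, 272, 252 and 238 on day 12, 297, 285 and 320 on day 15, and 386, 302 and 342 on day 18. Days 15 and 18 overlapped each other and lay above all libraries of days 6 to 12, where neighbouring days overlapped. The log2 differences from day 6 were 0.20 ± 0.074 on day 9 (adjusted p = 0.127), 0.32 on day 12 (0.000321), 0.56 on day 15 (1.18e-08) and 0.74 on day 18 (4.09e-12). SOD2, the mitochondrial dismutase, was at 19, 22.9 and 24 CPM on day 6 and at 29.5, 31.3 and 30.2 on day 18, a log2 difference of 0.45 ± 0.085 (adjusted p = 8.21e-06) with no overlap. Its day 12 difference of -0.20 (adjusted p = 0.0383, and 0.236 with edgeR) came from overlapping groups. Without replicate 2 or 3 of day 6 the adjusted p was 0.129 or 0.218, and without replicate 1 or 2 of day 12 it was 0.145 or 0.0594.

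CAT was the member that fell most on day 12. Its libraries without Pb gave 40.5, 41.4 and 38.4 CPM on day 6, 42.7, 35 and 37.4 on day 9, 30.7, 28.5 and 28.3 on day 12, 35.7, 32.7 and 35.2 on day 15, and 39.7, 36.9 and 36.8 on day 18. Day 12 lay below every other day, and day 18 overlapped day 6. The log2 difference was -0.45 ± 0.081 on day 12 (adjusted p = 7.29e-06) and -0.21 on day 15 (0.0242, and 0.134 with edgeR), and the latter became 0.0595, 0.0797 or 0.107 without replicate 1 or 2 of day 6 or replicate 2 of day 15. Over the 20 group means CAT ran against PRDX1 (r = -0.884) and PRDX4 (r = -0.842), again as a description.

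**Figure D2:**
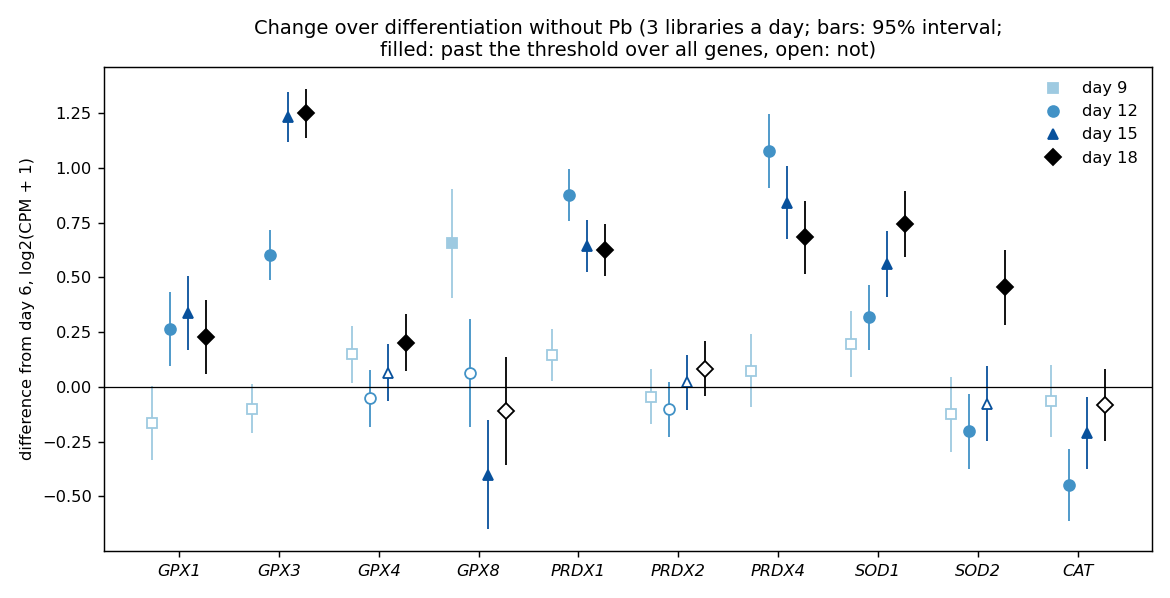
Difference from day 6 without Pb in log2(CPM + 1) for the 10 enzymes (vertical axis), by day (marker shape), with 95% intervals over 3 libraries a day. Filled markers passed the threshold over all genes. GPX3, PRDX1, PRDX4 and SOD1 are filled on days 12, 15 and 18, PRDX2 on none.

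The question of the dose series is which of these enzymes Pb changes, at which dose and on which day. Averaging the differences within each of the 5 days, GPX3 and PRDX1 were higher and CAT and GPX8 lower at 10 µM Pb, GPX3 was higher and GPX8 lower at 1.26 µM, and no member passed the threshold at 0.16 µM. The 3 dose comparisons share the same dishes at 0 µM. At 10 µM, 2 of the 10 were higher and 2 lower, where 6.93% of all genes were higher and 8.13% lower. At 1.26 µM, 1 was higher and 1 lower (1.67% and 2.17%). At 0.16 µM the count was 0 with limma (0.059% and 0.0655% of all genes), 2 at an unadjusted p under 0.05, and 0 with edgeR.

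The log2 difference at 10 µM was 0.26 ± 0.025 for GPX3 (adjusted p = 2.01e-11), 0.12 ± 0.026 for PRDX1 (0.000489), -0.15 ± 0.036 for CAT (0.00196) and -0.36 ± 0.055 for GPX8 (2.03e-06). At 1.26 µM it was 0.14 for GPX3 (0.000341) and -0.24 for GPX8 (0.0047). At 0.16 µM GPX3 differed by 0.06 and GPX8 by -0.13 (adjusted p = 0.499 and 0.492). Without day 18, and so within the first pool, the 10 µM values were 0.27 for GPX3, 0.12 for PRDX1, -0.13 for CAT and -0.44 for GPX8, all past the threshold. PRDX4 differed by 0.10 ± 0.037 at 10 µM and missed the threshold (adjusted p = 0.073), which it passed without the 2 length-skewed libraries (0.10, adjusted p = 0.0185). Without them the 4 called differences were 0.26 for GPX3, 0.12 for PRDX1, -0.15 for CAT and -0.36 for GPX8, all past the threshold. GPX8 was let in by its values on day 9 at 0 and 0.16 µM. With no filter, where its level plays no part in which genes are tested, its adjusted p was 8.00e-07 at 10 µM and 0.0032 at 1.26 µM. The other 5 differed by between -0.05 and 0.05.

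**Figure D3:**
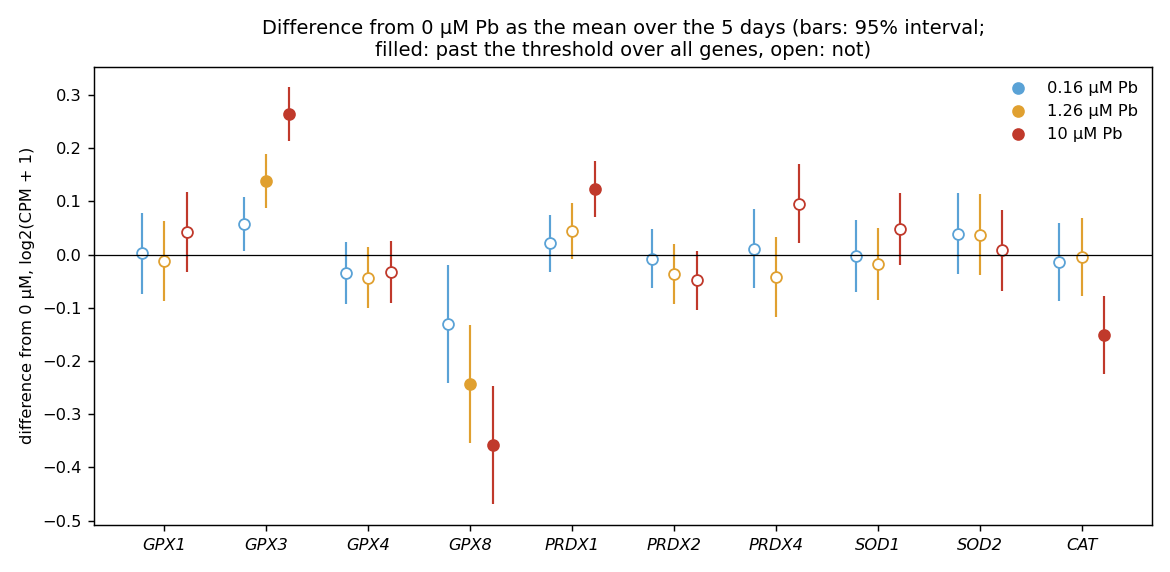
Difference from 0 µM Pb as the mean over the 5 days, in log2(CPM + 1) (vertical axis), for the 10 enzymes at 0.16, 1.26 and 10 µM, with 95% intervals. Filled points passed the threshold over all genes. For GPX3 the 3 points step up with dose (0.06, 0.14, 0.26) and for GPX8 they step down (-0.13, -0.24, -0.36), while the CAT and PRDX1 points are filled at 10 µM.

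Over the 4 doses taken as equal steps, the mean slope within days was 0.09 ± 0.0079 log2 units a step for GPX3 (adjusted p = 4.73e-12), 0.04 for PRDX1 (0.000405), -0.04 for CAT (0.00396) and -0.12 ± 0.017 for GPX8 (7.32e-07). These are 2 of 10 higher and 2 of 10 lower, beside 7.26% and 8.39% of all genes. GPX8 met the minimum only through day 9 at 0 and 0.16 µM, so its part in the count is a description. Its call was kept with no filter. CAT differed by -0.013 ± 0.036 at 0.16 µM and by -0.0045 ± 0.036 at 1.26 µM, both missing the threshold (adjusted p = 0.924 and 0.966).

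Within single days at 10 µM, GPX3 passed the threshold on days 9, 12 and 18, GPX8 on days 9 and 12, PRDX2 on days 15 and 18, GPX4 on day 15, PRDX1 on day 6, and PRDX4 and CAT on day 18. On day 6, 1 of the 10 was higher and 0 lower (0.295% and 0.36% of all genes). On day 9, 1 was higher and 1 lower (0.446% and 0.963%), and on day 12 likewise (3.03% and 2.34%). On day 15, 0 were higher and 2 lower (2.5% and 3.18%), and on day 18, 2 were higher and 2 lower (12.1% and 16.9%). With only the 6 libraries of a comparison in the fit, the calls that remained at 10 µM were GPX3 and GPX8 on day 9 and GPX8 on day 12. EdgeR did not call PRDX1 on day 6 (adjusted p = 0.0606) or PRDX2 and CAT on day 18 (0.192 and 0.0549). Without the 2 length-skewed libraries the day 18 calls at 10 µM were GPX3, PRDX1 and PRDX4.

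**Figure D4:**
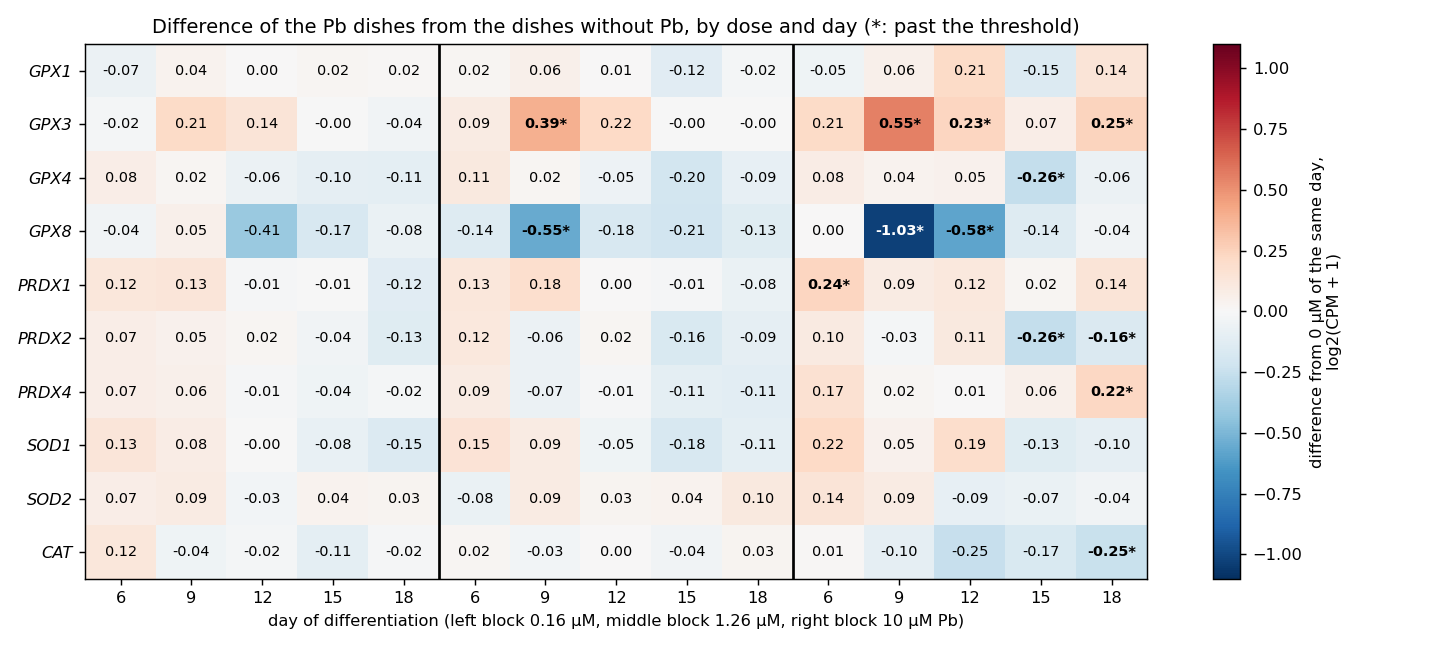
Difference of the dishes with Pb from those at 0 µM of the same day, in log2(CPM + 1), for the 10 enzymes (rows) by dose and day (columns). Red is higher and blue lower with Pb, and a star marks a difference past the threshold. The GPX3 row at 10 µM is positive on all 5 days, with 0.55 on day 9, and the darkest cell is GPX8 on day 9 at 10 µM (-1.03).

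GPX3 was positive on 5 of 5 days at 10 µM, with no overlap between the groups on 4 of them, and most so on day 9. On that day its CPM were 37.0, 35.2 and 37.1 at 0 µM, 44.8, 42.4 and 39.7 at 0.16 µM, 47.0, 45.8 and 51.3 at 1.26 µM, and 57.1, 51.3 and 53.8 at 10 µM. The libraries at 0 µM lay below all others and those at 10 µM touched only the highest at 1.26 µM. The log2 difference was 0.55 ± 0.056 at 10 µM (adjusted p = 6.55e-10) and 0.39 at 1.26 µM (2.91e-05). At 0.16 µM it was 0.21, and the adjusted p was 1. On day 6, 1 day into the exposure, the values were 41.4, 38.5 and 37.5 at 0 µM and 46.5, 43.3 and 46.9 at 10 µM, with a difference of 0.21 that missed the threshold (adjusted p = 0.0563). Without replicate 3 of 10 µM and the other length-skewed library it was 0.19 (adjusted p = 0.303). On day 12 GPX3 was at 71.7, 69.2 and 71 CPM at 10 µM, above all of the 0 µM libraries, a difference of 0.23 (adjusted p = 0.00698, and 0.0618 without replicate 3 of 0 µM). On day 15 the groups overlapped at 98.3, 92.7 and 103 CPM with Pb (0.07). On day 18 GPX3 was at 113, 111 and 112 CPM at 10 µM against 96, 96.8 and 90.2 at 0 µM (0.25 ± 0.056, adjusted p = 0.000766). Without the 2 length-skewed libraries it was 0.26 (adjusted p = 0.0018). At 1.26 µM the libraries of days 15 and 18 overlapped those at 0 µM.

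GPX8 moved the other way on day 9. Its reads were 43, 48 and 24 at 0 µM, 60, 48 and 56 at 0.16 µM, 19, 21 and 15 at 1.26 µM, and 0, 9 and 9 at 10 µM, so that 115 reads in 3 libraries at 0 µM stood against 18 at 10 µM. In CPM these were 1.22, 1.56 and 1.44 at 0 µM, 0.69, 0.65 and 0.58 at 1.26 µM, and 0, 0.26 and 0.30 at 10 µM, with no overlap. The difference was -1.03 ± 0.12 at 10 µM (adjusted p = 5.49e-08) and -0.55 at 1.26 µM (0.0156). Because the 0 µM libraries of this day are among the 6 through which GPX8 met the minimum, the same test was read with no filter, and the adjusted p was 1.5e-08 and 0.00849. The difference at 1.26 µM was not called by edgeR (adjusted p = 0.641), with a pseudocount of 0.25 (0.221), or without replicate 2 or 3 of either group (0.126 and 0.0998 for 0 µM, 0.0626 and 0.143 for 1.26 µM). On day 12 the reads were 15, 21 and 14 at 0 µM and 8, 1 and 0 at 10 µM (-0.58, adjusted p = 0.00198). On day 15 no library at 1.26 µM had a read, which allows up to 0.126, 0.0953 and 0.082 CPM in each (3 reads, counting error only), against 7, 5 and 4 reads at 0 µM, and the difference missed the threshold (adjusted p = 0.616). On day 18 the dishes with 10 µM gave 9 reads each, within the range of those without Pb.

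Several markers of mesenchymal or substrate-adherent cells, a cell type that SH-SY5Y cultures can hold, were lower with GPX8 at 10 µM on days 9 and 12, and also on day 6, when GPX8 differed by 0.00. Of 10 such markers 8 were tested, and 4 were lower and 0 higher at 10 µM on day 9, 5 lower and 0 higher on day 12, and 1 lower and 0 higher on day 15. On day 6, 2 were lower and 0 higher (1 and 0 without the 2 length-skewed libraries), and on day 18, 2 were lower and 1 higher. Their summed level was 130 to 135 CPM at 0 µM and 90.0 to 105 at 10 µM on day 6. It was 152 to 159 CPM at 0 µM, 101 to 116 at 1.26 µM and 66.2 to 81.5 at 10 µM on day 9, 215 to 221 and 101 to 106 on day 12, and 256 to 273 and 231 to 240 on day 18. Of the 10 markers PRRX1 and POSTN were at 0 in 56 and 57 of the 60 libraries, and COL1A2 and TWIST2 in 22 and 1. VIM, FN1, COL1A1, COL3A1, SNAI2 and LUM had reads in every library. The part of these cells in the GPX8 result was not tested. The 2 genes whose group means were most like those of GPX8, among 11572 searched, were CAVIN1, a coat protein of caveolae, and KRT18, a keratin (r = 0.902 and 0.843 over 20 group means).

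GPX4 and PRDX2, the most abundant per length, were lower at 10 µM on day 15. GPX4 gave 367, 373 and 411 CPM at 0 µM and 339, 295 and 327 at 10 µM, and PRDX2 gave 447, 431 and 448 against 377, 335 and 398. Neither pair of groups overlapped, and both differences were -0.26 (adjusted p = 0.00753 and 0.00544). Without replicate 2 of 10 µM the adjusted p was 0.114 for GPX4 and 0.119 for PRDX2, and for GPX4 it was 0.103 without replicate 3 of 0 µM. These 2 libraries had the extreme log2 slopes per 10-fold transcript length of the 2 groups. The slope was 0.16 in replicate 2 of 10 µM and -0.19 in replicate 3 of 0 µM. The others lay between -0.03 and 0.04. The transcripts of GPX4 and PRDX2 are 919 and 987 bases long. On day 18 PRDX2 was lower again, at 411, 423 and 401 CPM against 509, 454 and 424 (-0.16, adjusted p = 0.0431). Without replicate 1 of 0 µM, the library with low values of long transcripts, that difference was -0.09 (adjusted p = 0.363), and with the correction for GC content and length it was 0.01. Leaving out replicate 2 of 0 µM or any 1 of the 3 at 10 µM gave an adjusted p between 0.0519 and 0.133. GPX1 missed the threshold on every day, with 130, 130 and 144 CPM at 10 µM on day 12 against 117, 120 and 111 (0.21, adjusted p = 0.133).

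PRDX1 was positive at 10 µM on 5 of 5 days. On day 6 it was at 166, 157 and 179 CPM at 10 µM against 136, 144 and 145 at 0 µM, without overlap (0.24 ± 0.059, adjusted p = 0.0422). Without replicate 3 of 10 µM, which had low values of long transcripts, the difference was 0.19 (adjusted p = 0.383), and without replicate 1 or 2 of 0 µM the adjusted p was 0.333 or 0.0834. On day 12 the values of 277, 286 and 286 CPM lay above all 3 at 0 µM (0.12, adjusted p = 0.268), and on day 18 those of 244, 250 and 232 overlapped them (0.14, adjusted p = 0.061, and 0.20 with adjusted p = 0.0145 without the 2 length-skewed libraries). PRDX4, also positive on 5 of 5 days, was at 90.7, 88.8 and 87.5 CPM on day 18 against 91.4, 72.3 and 66.6, overlapping groups with a difference of 0.22 (adjusted p = 0.0362). That call was lost in each of 5 fits that left out 1 of replicates 2 and 3 of 0 µM or 1 of the 3 at 10 µM (adjusted p from 0.0597 to 0.267). Without the 2 length-skewed libraries the difference was 0.35 (adjusted p = 0.000519).

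SOD1 and SOD2 passed the threshold at no dose on any day. SOD1 at 10 µM differed by 0.22 on day 6 and 0.19 on day 12, and by -0.13 on day 15 and -0.10 on day 18. Without the 2 length-skewed libraries the day 6 and day 18 values were 0.16 and -0.0077. SOD2 lay between -0.09 and 0.14. CAT at 10 µM was at 28.1, 31 and 36.4 CPM on day 18 against 39.7, 36.9 and 36.8, all below the 0 µM libraries (-0.25 ± 0.081, adjusted p = 0.0174). Without replicate 1 of 0 µM or replicate 1 or 2 of 10 µM the adjusted p was 0.0954, 0.173 or 0.058, and without the 2 length-skewed libraries it was 0.0869. On day 12 CAT was at 25.6, 22.9 and 24.4 CPM at 10 µM against 30.7, 28.5 and 28.3, without overlap, and the difference of -0.25 missed the threshold (adjusted p = 0.0554), which it passed in the fit without the 2 length-skewed libraries (0.0463).

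At the lower doses, 0 of the 50 member comparisons within days passed at 0.16 µM, with 7 at an unadjusted p under 0.05 and 0 calls by edgeR. Over all genes, 0% passed in either direction on day 6, 0.0131% on day 9, 0.0197% on day 12, 0.0131% on day 15 and 6.34% on day 18. At 1.26 µM, 2 of 50 passed, GPX3 higher and GPX8 lower on day 9, where 0.131% of all genes were higher and 0.269% lower. On days 6, 12, 15 and 18 the shares in either direction at 1.26 µM were 0%, 0.0459%, 1.26% and 12.4%.

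Whether the difference at 10 µM changed from day to day was asked with a moderated F test, which 5 of the 10 passed, beside 21.7% of all genes. They were GPX8 (adjusted p = 1.99e-05), GPX3 (0.000197), PRDX2 (0.00331), SOD1 (0.0201) and GPX4 (0.0222). GPX3 and GPX8 passed also without day 18 (0.00158 and 0.000507), SOD1 did not (0.0742, and 0.0501 by edgeR on all days, and 0.0688 without the 2 length-skewed libraries), and GPX4 did not without replicate 3 of 0 µM or replicate 2 of 10 µM on day 15 (0.1 and 0.11). For PRDX1, PRDX4, SOD2, CAT and GPX1 a difference between days was not shown. Without the 2 length-skewed libraries GPX1 passed (0.0258).

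The stretch before the transcription start is shown for the 3 members matched in the RefSeq promoter table used here and with a called Pb difference over days: GPX3, GPX8 and CAT. Each run holds the 250 bases upstream of the start in RefSeq's GRCh38.p14, 5′ to 3′ on the gene's strand, with GC boxes (GGGCGG) and CCAAT boxes on either strand in capitals.
GPX3, chr5:151020341-151020590, plus strand: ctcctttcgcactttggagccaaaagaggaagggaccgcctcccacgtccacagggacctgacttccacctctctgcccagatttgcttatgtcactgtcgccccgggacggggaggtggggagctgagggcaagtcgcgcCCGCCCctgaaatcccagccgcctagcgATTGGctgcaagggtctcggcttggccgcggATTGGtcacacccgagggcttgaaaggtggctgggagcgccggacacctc
GPX8, chr5:55159921-55160170, plus strand: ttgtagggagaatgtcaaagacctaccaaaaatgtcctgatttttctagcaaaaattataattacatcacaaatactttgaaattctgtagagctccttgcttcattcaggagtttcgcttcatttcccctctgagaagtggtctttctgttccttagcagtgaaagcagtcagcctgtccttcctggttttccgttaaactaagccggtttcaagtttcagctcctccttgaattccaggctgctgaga
CAT, chr11:34438684-34438933, plus strand: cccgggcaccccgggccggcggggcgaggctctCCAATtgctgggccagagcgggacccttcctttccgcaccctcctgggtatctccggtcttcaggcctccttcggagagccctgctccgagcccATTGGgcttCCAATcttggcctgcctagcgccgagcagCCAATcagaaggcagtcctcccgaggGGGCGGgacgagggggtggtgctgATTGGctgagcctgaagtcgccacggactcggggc
The GPX3 stretch holds 1 GC box and 2 CCAAT boxes, that of CAT 1 and 5, and that of GPX8, with 41.2% GC, neither. Of 35116 promoters of this length, 42.6% hold the GC box and 32% the CCAAT box. The core of the antioxidant response element, TGACNNNGC on either strand, the sequence bound by NRF2, was found in 0 of the 8 members matched over 300 bases around the start, and in 13.3% of all promoters. A match or its absence here describes only these windows.

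Enzymes that supply or use the same electrons were counted from lists of related genes, to be read beside the shares of all genes given above: 21.6% higher and 34.6% lower on day 12, 32.1% and 34.7% on day 18, and 6.93% and 8.13% at 10 µM over days. In oxidative protein folding in the endoplasmic reticulum, where PRDX4 and GPX8 use the hydrogen peroxide made by ERO1, 7 of 8 genes were higher and 1 lower on day 12 against day 6, and 5 of 8 were higher and 0 lower at 10 µM over days. The disulfide isomerases PDIA4 and PDIA3 differed by 2.54 and 1.69 on day 12 and by 0.31 ± 0.021 and 0.26 ± 0.018 at 10 µM (adjusted p = 4.68e-16 and 1.72e-15). On day 18 PDIA4 was at 383 ± 17.8 CPM at 0 µM and 840 ± 13 at 10 µM. PRDX4 was called on that day, from overlapping groups and not in every fit leaving out 1 library. At 10 µM, 6 of the 8 genes were higher on day 18, 4 on day 15, and 0 on days 12 and 9. On day 6 the count was 2, and 1 without the 2 length-skewed libraries. PRDX4 differed by 0.06 on day 15, 0.01 on day 12, 0.02 on day 9 and 0.17 on day 6, missing the threshold. Without those libraries its day 6 value was 0.08. A link between PRDX4 and these genes was not tested.

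In the thioredoxin system, which reduces peroxiredoxins, 3 of 8 genes were higher and 1 lower at 10 µM over days, and 2 higher and 3 lower on day 12 against day 6, close to the shares of all genes. TXNIP, which binds and inhibits thioredoxin, fell by 0.36 on the log2 scale at 10 µM (adjusted p = 5.11e-09) and had the group means most like those of CAT (r = 0.948). TXNRD1, the cytosolic thioredoxin reductase, rose by 0.26 ± 0.044 (adjusted p = 1.71e-05). On day 12 TXNIP differed from day 6 by -1.66 and TXN, cytosolic thioredoxin, by 1.16.

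In glutathione supply and recycling, 3 of 12 genes were higher and 0 lower at 10 µM over days, and 5 higher and 1 lower on day 12. SLC3A2, the heavy chain of the cystine transporter, differed by 0.12 ± 0.029 at 10 µM over days (adjusted p = 0.00151) and by 1.02 on day 12. Of 10 genes of selenoprotein synthesis and selenium supply, 1 was higher at 10 µM, SEPSECS, which makes the selenocysteine on its transfer RNA (0.18 ± 0.052, adjusted p = 0.0102). EEFSEC, the elongation factor that brings that transfer RNA to the ribosome, differed by -0.09 (adjusted p = 0.0626). On day 12, 2 of these 10 were higher and 2 lower, neither above the share of all genes.

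Of 8 further members of the families, 4 were kept, and PRDX5 was higher (0.10, adjusted p = 0.0329) and PRDX6 lower (-0.07, adjusted p = 0.034) at 10 µM over days. On day 18 without Pb PRDX5 differed from day 6 by 0.64 and the mitochondrial PRDX3 by 0.27 (0.59 and 0.24 without the 2 length-skewed libraries). The 3 genes of copper supply were higher on day 18, with ATOX1, a copper chaperone, at 1.18 ± 0.11 and CCS, which loads copper into SOD1, at 0.44 ± 0.11 (1.12 and 0.29 without the 2 libraries). On day 12 against day 6, 1 of these 3 was higher and 2 were lower. On day 15, 2 were higher and 1 lower (26.2% and 32.2% of all genes). At 10 µM over days 0 of these 3 passed with limma, 0 at an unadjusted p under 0.05, and 0 with edgeR. At 10 µM on day 18, with the length-skewed library included, 0 were higher and 2 lower (12.1% and 16.9% of all genes).

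Of NRF2 and its regulators, 0 of 6 were higher and 5 lower on day 18 against day 6, with KEAP1, which marks NRF2 for degradation, at -0.68 ± 0.056 and BACH1, a repressor at the same sites, at -1.08 ± 0.18. At 10 µM over days 0 of the 6 passed with limma, 2 had an unadjusted p under 0.05, and 0 passed with edgeR. Of 9 peroxisome genes, where catalase resides, 0 were higher and 3 lower on day 12, close to the 34.6% of all genes that were lower, with PEX19, an import receptor for membrane proteins, at -0.49 ± 0.07 and PEX14, part of the docking complex for import, at -0.27 ± 0.076. At 10 µM over days 0 of the 9 passed with limma or at an unadjusted p under 0.05, and 0 with edgeR, and 1 was lower in the fit without the 2 length-skewed libraries. Of 6 sources of superoxide and hydrogen peroxide kept of 10, 0 passed at 10 µM over days with limma, 1 at an unadjusted p under 0.05 and 0 with edgeR, and on day 12 CYBA, a subunit of NADPH oxidases, differed by 1.37 and DUOX1, a dual oxidase, by -0.998.

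Other marker groups also differed in the comparisons above, and their counts are to be read beside the shares of all genes. Against day 6 these were 21.6% higher and 34.6% lower on day 12, and 26.2% and 32.2% on day 15. On day 18 they were 32.1% and 34.7%. At 10 µM they were 6.93% and 8.13% over days, and 12.1% and 16.9% on day 18. Of 6 proliferation markers all were lower on days 12, 15 and 18 against day 6, and all at 10 µM over days, with sums of 1020 to 1070 CPM on day 6 and 419 to 432 on day 18 at 0 µM, and 246 to 261 on day 18 at 10 µM. Of 4 epithelial markers kept of 6, 3 were higher and 1 lower on day 18 against day 6, with sums of at most 41.1 CPM through day 15 and at least 72.7 on day 18 at every dose. None of the 4 passed at 10 µM over days with limma, 1 had an unadjusted p under 0.05, and 0 passed with edgeR, while 1 was lower without the 2 length-skewed libraries. Of 10 noradrenergic markers 0 were higher and 5 lower at 10 µM over days, and 0 higher and 6 lower on day 18 at 10 µM. Without Pb 3 of them were higher and 5 lower on day 12, and 5 higher and 3 lower on day 18, with sums of 4389 to 4563 CPM on day 6 and 8668 to 9349 on day 18. DBH had the highest mean of the 10, at 5381 CPM with a range of 335 to 12048 over all libraries, so these sums depend heavily on it. Of 8 neuronal markers 4 were higher and 0 lower at 10 µM over days, and 7 higher and 0 lower on day 18 against day 6, with sums of 3899 to 3977 CPM on day 6 and 5819 to 6672 on day 18. The share of reads from mitochondrial genes was 1.2% to 1.31% at 0 µM and 1.86% to 2.16% at 10 µM on day 12, 1.55% to 1.67% and 2.05% to 2.53% on day 15, and 1.77% to 2.1% and 2.3% to 2.77% on day 18, without overlap on these 3 days. On day 9 it was 1.04% to 1.2% at 0 µM and 1.21% to 1.38% at 10 µM, also without overlap. On day 6 the groups overlapped, at 1.09% to 1.31% and 1.22% to 1.36%. The part of these 4 marker groups and of the mitochondrial share in the values of the 10 enzymes was not tested.

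The genes whose group means were most like those of each member are given as a description over 20 groups that share their days. For GPX3 they were UCHL1, a neuronal deubiquitinase, and IGSF8 (r = 0.984 and 0.982). For PRDX4 they were BLVRA, biliverdin reductase, and VIP, a neuropeptide (0.991 and 0.990), and for PRDX1 BLVRA and CREB3 (0.983 and 0.982). SOD1 was most like SDF2 and NOP10 (0.962 and 0.959) and SOD2 most like OAT, a mitochondrial aminotransferase, and YPEL5 (0.956 and 0.938). CAT came with TXNIP and ABCA1, a cholesterol exporter (0.948 and 0.941), GPX1 with SRA1 and TFPT (0.969 and 0.965), GPX4 with GEMIN6 and MRPL34 (0.942 and 0.927), and PRDX2 with LSM2 and IFT22 (0.854 and 0.834).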

How the data were processed

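RNA of 60 libraries of SH-SY5Y cells was measured by PlexWell RNA sequencing, a plate method that adds a barcode to the cDNA of each well. The authors deposited 1 table of CPM values, in counts per 1000000 reads assigned to genes. Per the submitters' processing notes, the tools were STAR, featureCounts, FastQC and MultiQC with GRCh38, and the annotation and strand setting were not given in the sources used here. Every value was a whole multiple of 1 read within 0.01 read (100% of values), so whole reads were recovered.

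From these values log2(CPM + 1) was computed for genes that reached 1 CPM in 3 or more libraries, and limma 3.58.1 in R 4.3.3 was fitted with 1 mean per group to all 60 libraries (40 residual degrees of freedom, trend in the prior variance). P-values are two-sided and adjusted by Benjamini-Hochberg over 15263 genes at a threshold of 0.05. Fold differences on this scale understate those of low genes such as GPX8. Groups and replicate numbers come from the labels. The 10 enzymes, the lists of related genes and the markers were chosen with earlier results of these data known. Among genes outside the 10, the text names per list the 2 with the smallest p in the comparison described, in some cases with their values in a second comparison, and per enzyme the 2 genes most correlated over 20 group means among genes with a mean of at least 5 CPM; marker genes were named after their values were seen. A gene of the glutathione list that this rule would name is not reported here. Alternatives were a pseudocount of 0.25, no filter, median-ratio rescaling, only the groups compared, a replicate block, edgeR's quasi-likelihood test (version 4.0.16) of the recovered reads, leaving out 2 libraries low in long transcripts, a correction for GC content and length by splines of 4 degrees of freedom over 14132 genes, leaving out day 18, a linear dose, and leaving out each library. Promoters come from a RefSeq table, in which 8 of the 10 symbols were matched.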

Additional observations from a re-analysis of the deposited data

Results flagged for a closer look

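For 5 of the 10 enzymes a change between days in the difference between 10 and 0 µM Pb passed the threshold. This was a moderated F test of 4 contrasts adjusted over all genes with limma, and the calls of GPX4 and SOD1 were not kept in every alternative. The same test was passed by 21.7% of all genes. The adjusted p was 0.000197 for GPX3, whose log2 difference was 0.55 on day 9 and 0.07 on day 15, and 1.99e-05 for GPX8, at -1.03 on day 9 and 0.00 on day 6. It was 0.00331 for PRDX2 (0.11 on day 12 and -0.26 on day 15), 0.0222 for GPX4 (0.08 on day 6 and -0.26 on day 15) and 0.0201 for SOD1 (0.22 on day 6 and -0.13 on day 15). GPX8 met the minimum only through day 9 at 0 and 0.16 µM, so its part in the count is a description. Without the 2 length-skewed libraries the adjusted p of SOD1 was 0.0688 and its day 6 difference 0.16. For GPX4 the adjusted p was 0.1 without replicate 3 of 0 µM on day 15, and 0.11 without replicate 2 of 10 µM on day 15. Groups of 3 dishes were too small for a test of single libraries that stand apart.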

How the results depend on the processing

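Of 50 member differences past the threshold, 30 kept their call and direction in every alternative and without each library in turn. Among them are GPX3, PRDX1 and CAT at 10 µM over days and over dose, and PRDX1, PRDX4 and SOD1 on days 12 to 18. The 30 also hold calls of GPX8, which met the filter only through day 9 at 0 and 0.16 µM, and which were kept with no filter. With the correction for GC content and length 3 reversed: GPX1 (-0.013) and GPX4 (-0.10) on day 18 against day 6, and PRDX2 at 10 µM on day 18 (0.0091). Only the groups compared lost 16 of the 50 calls, with fewer libraries in the fit; the cause of the other losses was not tested. On day 9 against day 6 the count of 1 was 0 with only the groups compared and 0 with edgeR. At 10 µM on day 6 the count of 1 was 2 without the filter and 0 with rescaling, only the groups compared, edgeR, the 2 libraries left out, or the GC content and length correction. At 1.26 µM on day 9 the count of 2 was 1 with a pseudocount of 0.25, 0 with only the groups compared and 1 with edgeR, and on day 15 the count of 0 was 1 with edgeR. At 10 µM the count of 2 on day 12 was 1 and that of 2 on day 15 was 0 with only the groups compared. On day 18 the count of 4 was 2 without the filter, 0 with only the groups compared and 2 with edgeR. For the change of the 10 µM difference between days, the count of 5 was 3 with only the groups compared.

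Without 1 library the counts ranged from 1 to 2 on day 9 against day 6, 6 to 7 on day 12, 5 to 7 on day 15 and 5 to 7 on day 18. They ranged from 0 to 2 at 10 µM on day 6, 1 to 2 at 1.26 µM on day 9, 1 to 2 at 10 µM on day 12, 0 to 2 on day 15, 0 to 1 at 0.16 µM on day 18, and 1 to 3 at 10 µM on day 18. For 10 µM over days and for the dose trend they ranged from 4 to 5, and for the change between days from 4 to 6. Whether the numbers pair the dishes was not settled. Same-numbered deviations had mean correlations between -0.06 and 0.13 within days, and other pairs between -0.07 and 0.03. The difference was largest on day 12, at 0.13 against -0.07. The samples share only a number, and with the replicate block 50 of the 50 calls were kept, while the count at 10 µM over days was 5 and on day 18 also 5. GPX8, at 0 to 60 reads a library, was the member limited by depth.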
